A study of Mus musculus with 12 samples.

Results

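The collagen genes of mouse colon tumours are described here over 4 genotypes. They were chosen by name, as every gene whose symbol is Col, a number, a and a number. The table holds 43 such genes among 21792, and 42 of them, among 21322 genes in all, passed the filter for testing, a mean value of at least 1. Col10a1, which the annotation also holds, is not analysed here. Total RNA of tumours from FvB mice was sequenced after azoxymethane (AOM), a carcinogen that induces colon tumours. AOM had been injected intraperitoneally at 10 mg/kg every week for 6 weeks, with the end point at week 16 counted from dose 1. Of 12 libraries, 3 came from wt tumours, 3 from miR-34a deficient tumours, 3 from p53 deficient tumours and 3 from tumours deficient in both (double deficient), and every group, wt included, had received AOM. The 3 deficient groups carry the label IEC, the usual short form for intestinal epithelial cells, so the deletion is taken to sit in the epithelium. The labels name neither the recombinase nor its promoter. Nor do they say whether each library is its own animal, and the p-values therefore reflect only the scatter among these libraries, which may be technical.

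Collagens are secreted or membrane proteins built from triple helices of chains. Fibrillar collagens such as types I, III and V form the tension-bearing fibrils of connective tissue and are made mainly by fibroblasts. Type IV collagen forms the sheet of basement membranes under epithelium and around vessels, type VI forms beaded microfilaments, and fibril-associated collagens sit on the surface of fibrils. In the colon most collagen mRNA comes from stromal cells of the lamina propria and vessel walls, while a few chains, such as type XVII of hemidesmosomes, come from epithelia.

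The values are normalized scores per gene, not reads, so depth is unknown and levels are compared only within a gene. Upper quartiles of the libraries lay between 1969.75 and 2048.75. Their summed values were less even, from 45310209 in double deficient 3 to 101121673 in miR-34a deficient 1. Trp53, the deleted gene, had values of 4126 to 4512 in wt, 3466 to 5120 in miR-34a deficient, 401 to 598 in p53 deficient and 504 to 924 in double deficient libraries. The mature miR-34a was not measured. The labels give miR-34a deficient 1 and p53 deficient 1 another run code than the other 10 libraries. Averaged over Ddx3y, Eif2s3y, Kdm5d and Uty, Y-linked expression (log2) reached at most 0.79 in double deficient tumours. It was 0.00 in wt 1 and in miR-34a deficient 1 and ran from 2.77 to 6.98 elsewhere, so this level was not balanced over the groups. The gene Xist made up 23.2% of the summed values in wt 1, 52.8% in miR-34a deficient 1 and 1.24% to 5.92% in double deficient libraries. Elsewhere it made up 0.000221% to 0.234%. Epithelial markers were present in every library, with none of 11 at 0. The same held for the markers of fibroblasts, endothelium, smooth muscle, pericytes and leukocytes, while 2 of 4 glial markers, Sox10 and Gfap, are not analysed here.

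Collagens varied widely between tumours of 1 genotype. The median SD within a genotype was 0.59 on the log2 scale over the 42 collagens tested, against 0.41 over all genes tested. Where the mean was 100 or more it was 0.60 for 27 collagens and 0.27 for all 12936 such genes. The median share of a collagen's spread that lay between genotypes was 41.3%, near the 39.2% over all genes. That share ran from 4.38% for Col4a4 to 86.5% for Col20a1. p53 deficient 3 was the lowest of the 12 libraries for 18 of the 42 collagens, and miR-34a deficient 2 was the highest for 17. These counts were not made over all genes, so whether they are particular to collagens is unknown. wt 2 had the highest Col1a1, Col1a2, Col3a1, Col5a1 and Col5a2 of the wt libraries.

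**Figure D1:**
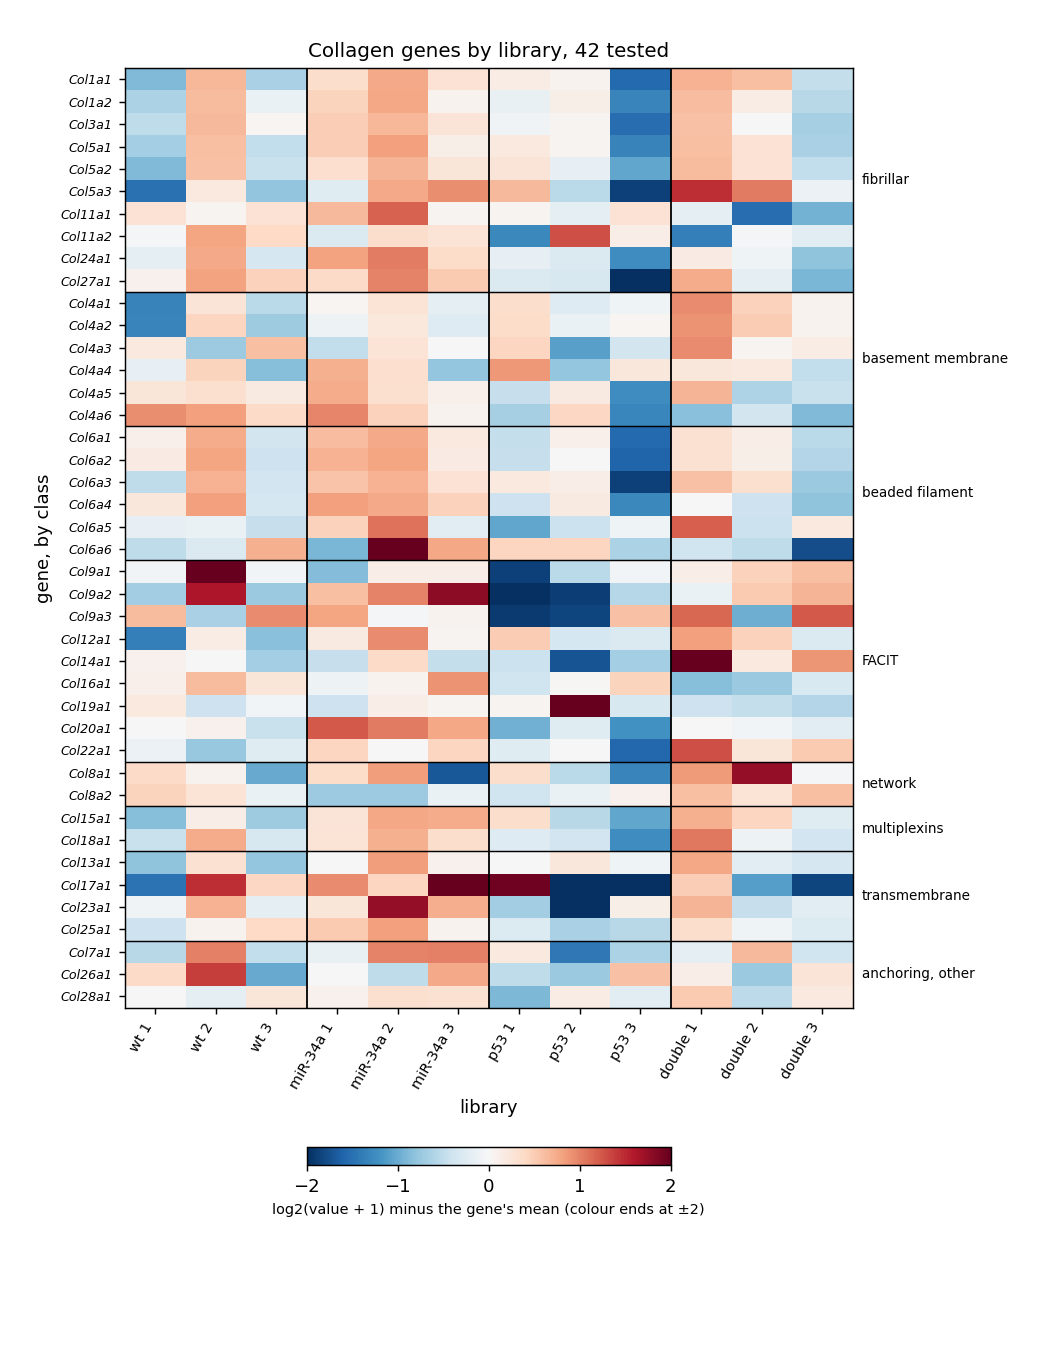
Each cell shows log2(value + 1) of a collagen (vertical axis, by class) in a library (horizontal axis, by genotype) minus that gene's mean over the 12 libraries, with the colour ending at 2 in both directions. p53 deficient 3 is the lowest library for 18 of the 42 genes, most fibrillar ones among them. miR-34a deficient 2 is the highest library for 17 of the 42 genes, and neither count was made over all genes.

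Among the fibrillar collagens, Col1a1 and Col1a2 encode the chains of type I collagen, the main fibril protein of connective tissue. Col1a1 had values of 3680, 10767 and 4360 in wt, 8715, 11453 and 8290 in miR-34a deficient, 7528, 7167 and 2307 in p53 deficient, and 11041, 10356 and 4880 in double deficient libraries 1 to 3. Col1a2 had 3338, 8016 and 4730 in wt, 7034, 8805 and 5460 in miR-34a deficient, 4653, 5597 and 2072 in p53 deficient, and 7937, 5759 and 3513 in double deficient libraries. wt 2 was far above wt 1 and wt 3, and each deficient group overlapped wt.

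Col3a1, the chain of type III collagen of reticular fibrils, had 5679, 12649 and 8238 in wt, 11322, 12806 and 9688 in miR-34a deficient, 7697, 8363 and 2801 in p53 deficient, and 12113, 8121 and 5097 in double deficient libraries. Its miR-34a deficient and p53 deficient groups did not overlap. Col5a1, a chain of type V collagen, which seeds type I fibrils, had 788, 1921 and 897 in wt, 1786, 2245 and 1377 in miR-34a deficient, 1446, 1313 and 499 in p53 deficient, and 1927, 1544 and 804 in double deficient libraries. Its partner Col5a2 had 876, 2407 and 1175 in wt, 2035, 2579 and 1893 in miR-34a deficient, 1924, 1442 and 784 in p53 deficient, and 2493, 1972 and 1141 in double deficient libraries. For all 5 genes p53 deficient 3 was the lowest library and miR-34a deficient 2 the highest. The other 5 tested members of the class include Col5a3 (95 to 972), Col27a1 (17 to 176) and Col11a1 (1 to 12), the last of them near the floor of the table. Col2a1, the cartilage collagen, was listed at 0 in 10 of the 12 libraries, with 3 in p53 deficient 3 and 4 in double deficient 3, and was not tested.

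Type VI collagen is a trimer of the chains of Col6a1, Col6a2 and Col6a3. Col6a1 had 1629, 2537 and 1173 in wt, 2330, 2570 and 1729 in miR-34a deficient, 1090, 1622 and 517 in p53 deficient, and 1875, 1660 and 1047 in double deficient libraries. Col6a2 had 1563, 2407 and 1042 in wt, 2242, 2415 and 1563 in miR-34a deficient, 1010, 1402 and 459 in p53 deficient, and 1709, 1514 and 929 in double deficient libraries. Col6a3 had 1121, 2589 and 1220 in wt, 2362, 2593 and 1960 in miR-34a deficient, 1835, 1745 and 437 in p53 deficient, and 2393, 2001 and 953 in double deficient libraries. All miR-34a deficient libraries lay above all p53 deficient ones for all 3 genes. Col6a1 over Col6a2 was nearly constant, 1.04 to 1.16 over the 12 libraries, and the pair correlated at r = 1.00. Col6a3 over Col6a1 was looser, from 0.688 in wt 1 to 1.68 in p53 deficient 1. Of the other type VI chains, Col6a4 had 283 to 1219, Col6a5 had 28 to 135 and Col6a6 had 4 to 107.

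Col1a1, Col1a2, Col3a1 and 7 other collagens kept closely matching profiles over the libraries. Correlations here describe 12 libraries, with each gene on the log2 scale, and the libraries of a genotype share that genotype. Of 351 pairs among the 27 collagens with a mean of at least 100, 27 had r above 0.9 and 50 had r below 0. With the mean profile of Col1a1, Col1a2 and Col3a1, 7 further collagens correlated above 0.85, namely Col5a1 (0.98), Col6a3 (0.98), Col5a2 (0.95), Col18a1 (0.92), Col6a1 (0.90), Col6a2 (0.88) and Col27a1 (0.87). After the genotype means were removed these values were 0.99, 0.98, 0.96, 0.90, 0.90, 0.89 and 0.93, so these genes followed each other within genotypes too. Col9a3 (-0.23) and Col16a1 (-0.19) did not follow it.

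The regions upstream of 4 of these genes are shown to let a reader see how different the starts of genes with closely matching profiles are. Each is the 250 bases before the RefSeq transcription start (GRCm38.p6), 5′ to 3′ on the gene's strand, and none overlaps an annotated exon. Capitals mark the TATA box, written TATAAA, and the GC box, written GGGCGG. Each was searched on both strands, so that the reverse complement of a box is in capitals too. Col3a1 lies on the plus strand at chr1:45311288-45311537, Col5a1 on the plus strand at chr2:27886175-27886424, Col6a2 on the minus strand at chr10:76623631-76623880 and Col6a3 on the minus strand at chr1:90843972-90844221.
Col3a1: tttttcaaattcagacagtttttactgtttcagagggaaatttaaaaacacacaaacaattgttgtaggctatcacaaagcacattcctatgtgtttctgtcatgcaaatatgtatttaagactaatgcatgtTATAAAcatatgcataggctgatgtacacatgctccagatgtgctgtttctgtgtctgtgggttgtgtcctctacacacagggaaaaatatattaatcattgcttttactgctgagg
Col5a1: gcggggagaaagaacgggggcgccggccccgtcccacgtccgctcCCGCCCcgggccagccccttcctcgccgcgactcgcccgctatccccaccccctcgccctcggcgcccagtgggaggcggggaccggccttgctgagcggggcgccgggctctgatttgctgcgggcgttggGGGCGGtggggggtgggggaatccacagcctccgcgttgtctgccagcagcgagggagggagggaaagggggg
Col6a2: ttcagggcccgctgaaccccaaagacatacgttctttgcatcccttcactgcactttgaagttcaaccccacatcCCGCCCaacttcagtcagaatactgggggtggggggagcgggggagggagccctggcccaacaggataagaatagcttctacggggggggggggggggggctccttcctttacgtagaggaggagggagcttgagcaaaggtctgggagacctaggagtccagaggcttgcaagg
Col6a3: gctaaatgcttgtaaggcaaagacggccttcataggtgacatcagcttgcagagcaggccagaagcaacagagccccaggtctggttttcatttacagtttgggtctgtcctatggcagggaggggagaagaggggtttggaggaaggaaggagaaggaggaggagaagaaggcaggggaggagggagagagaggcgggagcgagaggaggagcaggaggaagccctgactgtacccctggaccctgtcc
The Col3a1 region has 35.2% G and C and 1 TATAAA, which begins 117 bases before the start, while that of Col5a1 has 76.4% G and C and 2 GC boxes. Col6a2 holds 1 GC box at 59.2% G and C, and Col6a3 neither motif at 57.2%. Col6a2 has another RefSeq start, whose 250 upstream bases hold 3 GC boxes at 64.4% G and C and share 226 bases with annotated exons, so they are not printed. RefSeq start windows of 300 bases, from 250 before to 50 after the start, were matched for 34 of the 43 collagens, in 37 windows. GGGCGG was in 62.2% of these and in 35.7% of all 32851 windows, TATAAA in 10.8% against 13.6%, and CCAAT in 35.1% against 37.4%. Such a match describes the letters and is no evidence of a bound factor.

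Basement membrane collagens followed the profile of type I and III chains to different degrees. Among the 4 with a mean of at least 100, r was 0.44 for Col4a6, 0.46 for Col4a2, 0.52 for Col4a1 and 0.72 for Col4a5. The mean of the standardized values of these 4 correlated with that profile at r = 0.94, which describes none of the single chains. With the mean profile of Col4a1 and Col4a2, Col4a5 correlated at -0.05 and Col4a6 at -0.49. Col4a1 and Col4a2, the chains of the ubiquitous type IV network, start head to head on chromosome 8, where their annotated exons overlap by 22 bases (GRCm38, 11312805 to 11312826). Whether reads were counted by strand is not given in the sources used here. Col4a1 had 4975, 14954 and 8607 in wt, 12922, 15123 and 11127 in miR-34a deficient, 16035, 10469 and 11822 in p53 deficient, and 24143, 17330 and 13215 in double deficient libraries. Col4a2 had 2850, 9684 and 4386 in wt, 6644, 8256 and 5997 in miR-34a deficient, 9248, 6501 and 7377 in p53 deficient, and 13297, 10127 and 7525 in double deficient libraries. wt 1 was the lowest and double deficient 1 the highest for both chains, and wt 2 lay within the range of the double deficient libraries.

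Their ratio, Col4a1 over Col4a2, stayed between 1.54 and 1.96, with r = 0.98. The correlation of Col4a1 with the profile of type I and III chains was only 0.52, and 0.70 within genotypes, and that of Col4a2 was 0.46 and 0.70. p53 deficient 3, the lowest library for type I, had more type IV than wt 1 and wt 3. Col12a1, a fibril-associated collagen of dense matrix, tracked type IV at r = 0.90.

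The other type IV chains belong to restricted networks and had other patterns. Col4a5 (100 to 399) and Col4a6 (43 to 214) start 1308 bases apart on opposite strands of the X chromosome. Col4a6 had 207, 192 and 142 in wt, 214, 150 and 113 in miR-34a deficient, 68, 144 and 43 in p53 deficient, and 60, 84 and 58 in double deficient libraries, so every double deficient library was below every library with intact p53. Col4a1 over Col4a5 ran from 17.5 in wt 1 to 118 in p53 deficient 3. Col4a3 (13 to 56) and Col4a4 (17 to 58) were low.

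**Figure D2:**
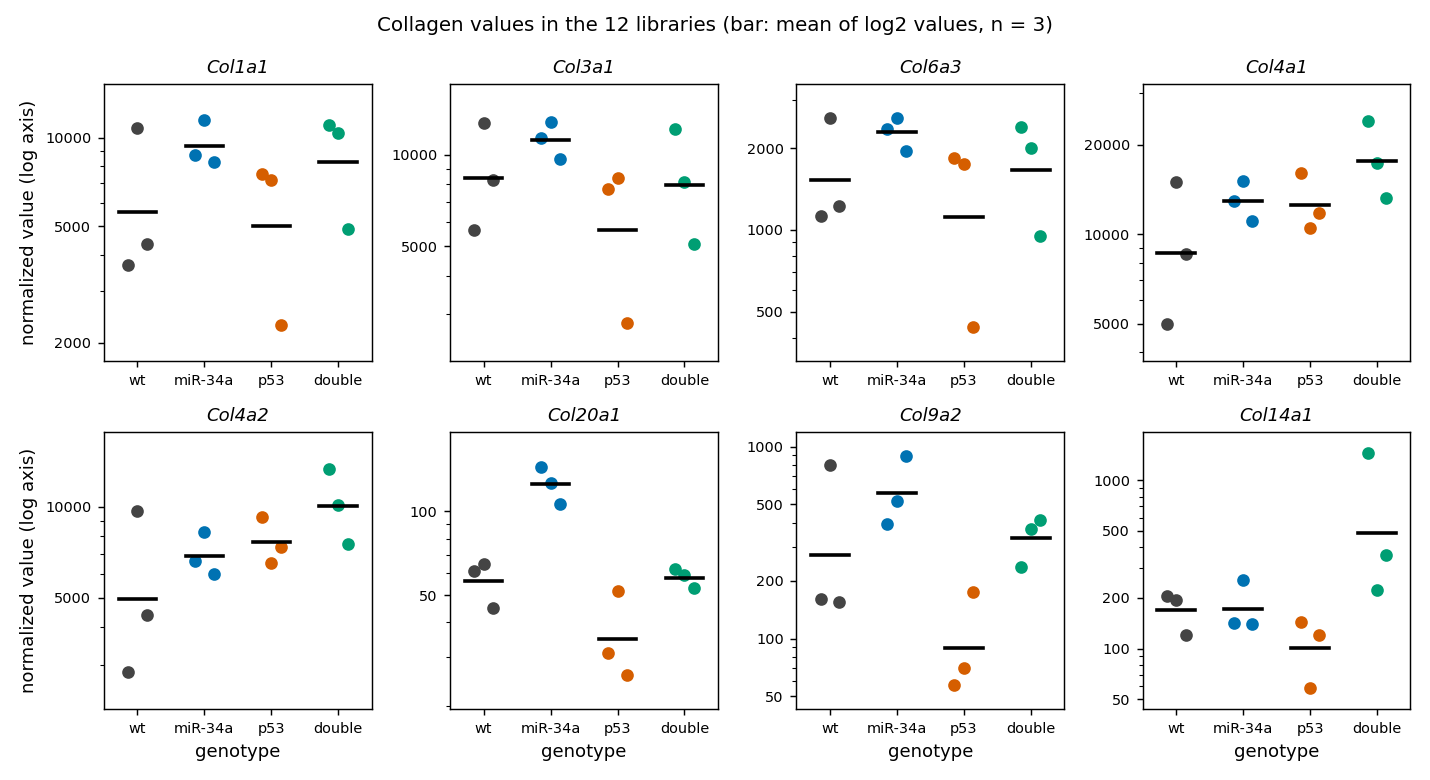
Values of 8 collagens (vertical axes, normalized value on a log axis) by genotype (horizontal axes), with 1 point per library and a bar at the mean of log2 values, n = 3. The points of Col1a1, Col3a1 and Col6a3 spread widely within wt, p53 deficient and double deficient tumours, while the 3 miR-34a deficient libraries of Col20a1, 106 to 145, sit above all others.

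Fibril-associated collagens lack long uninterrupted helices and decorate fibrils. They include Col20a1 and Col9a2, which had the lowest p of the collagens in the test for any difference among the 4 genotypes (limma). By share of spread between genotypes Col20a1 was also first (86.5%). Col8a2 (74.5%), Col11a1 (69.1%) and Col4a6 (66.8%), of other classes, were above Col9a2 (64.6%) by that measure. Col20a1 had 61, 65 and 45 in wt, 145, 127 and 106 in miR-34a deficient, 31, 52 and 26 in p53 deficient, and 62, 59 and 53 in double deficient libraries. The miR-34a deficient libraries were the 3 highest, and each p53 deficient library was below each double deficient one. Col20a1 (GRCm38 chromosome 2, 180986535 to 181018363, plus strand) shares 79 exonic bases with BX649560.1 on the same strand, so reads of the 2 could be split.

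Col9a2, a chain of the type IX collagen best known from cartilage, lies on chromosome 4 at 121039385 to 121055322, plus strand. It had 160, 805 and 156 in wt, 397, 521 and 898 in miR-34a deficient, 57, 70 and 175 in p53 deficient, and 237, 373 and 416 in double deficient libraries. p53 deficient 3 overlapped wt 1 and wt 3. The other chains of this trimer, Col9a1 (1 to 28) and Col9a3 (35 to 315), were not called. In p53 deficient against wt tumours the 3 chains differed by -1.45, -1.60 and -1.37, and in p53 deficient against miR-34a deficient tumours by -0.62, -2.67 and -1.34, in the order Col9a1, Col9a2, Col9a3.

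Col14a1, found on fibrils of mature connective tissue, had 206, 195 and 121 in wt, 141, 255 and 140 in miR-34a deficient, 144, 58 and 121 in p53 deficient, and 1457, 223 and 358 in double deficient libraries. Most of the height of the double deficient group was 1 library, double deficient 1. Col12a1 had 357, 1028 and 516 in wt, 1041, 1789 and 961 in miR-34a deficient, 1319, 726 and 756 in p53 deficient, and 1636, 1273 and 756 in double deficient libraries. Col16a1 ran from 256 to 860 with all double deficient libraries (256, 275 and 374) below wt (497, 714 and 548).

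The remaining classes were heterogeneous. The multiplexins Col15a1 and Col18a1 sit in basement membranes, and the latter is the precursor of endostatin. Col15a1 had 187, 372 and 205 in wt, 403, 575 and 564 in miR-34a deficient, 432, 230 and 163 in p53 deficient, and 553, 456 and 285 in double deficient libraries. Col18a1 had 1679, 3802 and 1822 in wt, 2760, 3748 and 2904 in miR-34a deficient, 1916, 1752 and 960 in p53 deficient, and 4713, 2120 and 1748 in double deficient libraries. All miR-34a deficient values of Col15a1 lay above wt, and those of Col18a1 overlapped wt.

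Col17a1, the hemidesmosomal collagen, was the most variable of all within genotypes, with an SD of 1.66. It had 154, 1194 and 577 in wt, 827, 582 and 3400 in miR-34a deficient, 1663, 97 and 98 in p53 deficient, and 604, 200 and 120 in double deficient libraries. Every group overlapped every other one. Col7a1, the anchoring fibril collagen, had 134, 396 and 140 in wt, 178, 392 and 400 in miR-34a deficient, 226, 73 and 127 in p53 deficient, and 172, 310 and 150 in double deficient libraries. The transmembrane collagen Col23a1 ran from 120 to 2447, and the network collagen Col8a1 from 58 to 647.

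Differences between genotypes were tested with limma on log2(value + 1) over all 21322 genes, with 1 mean per genotype from all 12 libraries. A gene is called when its Benjamini-Hochberg adjusted p over all genes is under 0.05, and folds are on the log2(value + 1) scale, which understates low genes. The 6 pairwise comparisons, the interaction and a test for any difference among the 4 genotypes were made, 8 in all, each adjusted on its own. Comparisons that involve the same group share its libraries, so they are not independent of each other.

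The largest median difference of collagens was that of p53 deficient against miR-34a deficient tumours, where 2 collagens were called, both lower in the p53 deficient group. Col20a1 was 3.52-fold lower, with a log2 difference of -1.82 ± 0.31 (SE, n = 3 per group, limma adjusted p = 0.0196). Col9a2 was 6.36-fold lower, with -2.67 ± 0.62 (limma adjusted p = 0.0435). Of all genes 3.39% were called, and 2.25% were called lower, so 2 of 42 is near the background. At an unadjusted p under 0.05, 15 of 42 collagens were lower and 0 higher, against 14.3% and 8.71% of all genes. In 38 of 42 the difference was below 0, as in 57.2% of all genes, and the median was -0.90 for collagens and -0.10 for all genes. For 13 of them the groups did not overlap, all lower, against 16.6% of all genes lower and 11.1% higher.

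By class, the medians in this comparison were -0.90 for 10 fibrillar, -1.10 for 6 beaded filament and -0.77 for 9 fibril-associated collagens. They were -1.46 for 4 transmembrane, -1.04 for 2 multiplexin and -0.56 for 3 anchoring fibril and other collagens. For 6 basement membrane collagens the median was -0.16, and for 2 network collagens 0.02. After the 2 called genes Col23a1, at -1.96 ± 0.62 (limma adjusted p = 0.0967), had the lowest p. Col6a1 and Col6a2 differed by -1.17 ± 0.40 and -1.23 ± 0.42 (limma adjusted p = 0.119 and 0.113), and Col6a4 by -1.18 ± 0.38 (limma adjusted p = 0.0992). Col1a1 differed by -0.91 ± 0.51 and Col3a1 by -0.99 ± 0.43 (limma adjusted p = 0.301 and 0.202). None of these 6 was called, although their groups did not overlap. Col17a1 had -2.22 ± 1.14 (limma adjusted p = 0.268). Leaving out single libraries moved Col17a1 between -3.58 and -1.46, and Col23a1 between -2.55 (without p53 deficient 3) and -1.20 (without p53 deficient 2).

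**Figure D3:**
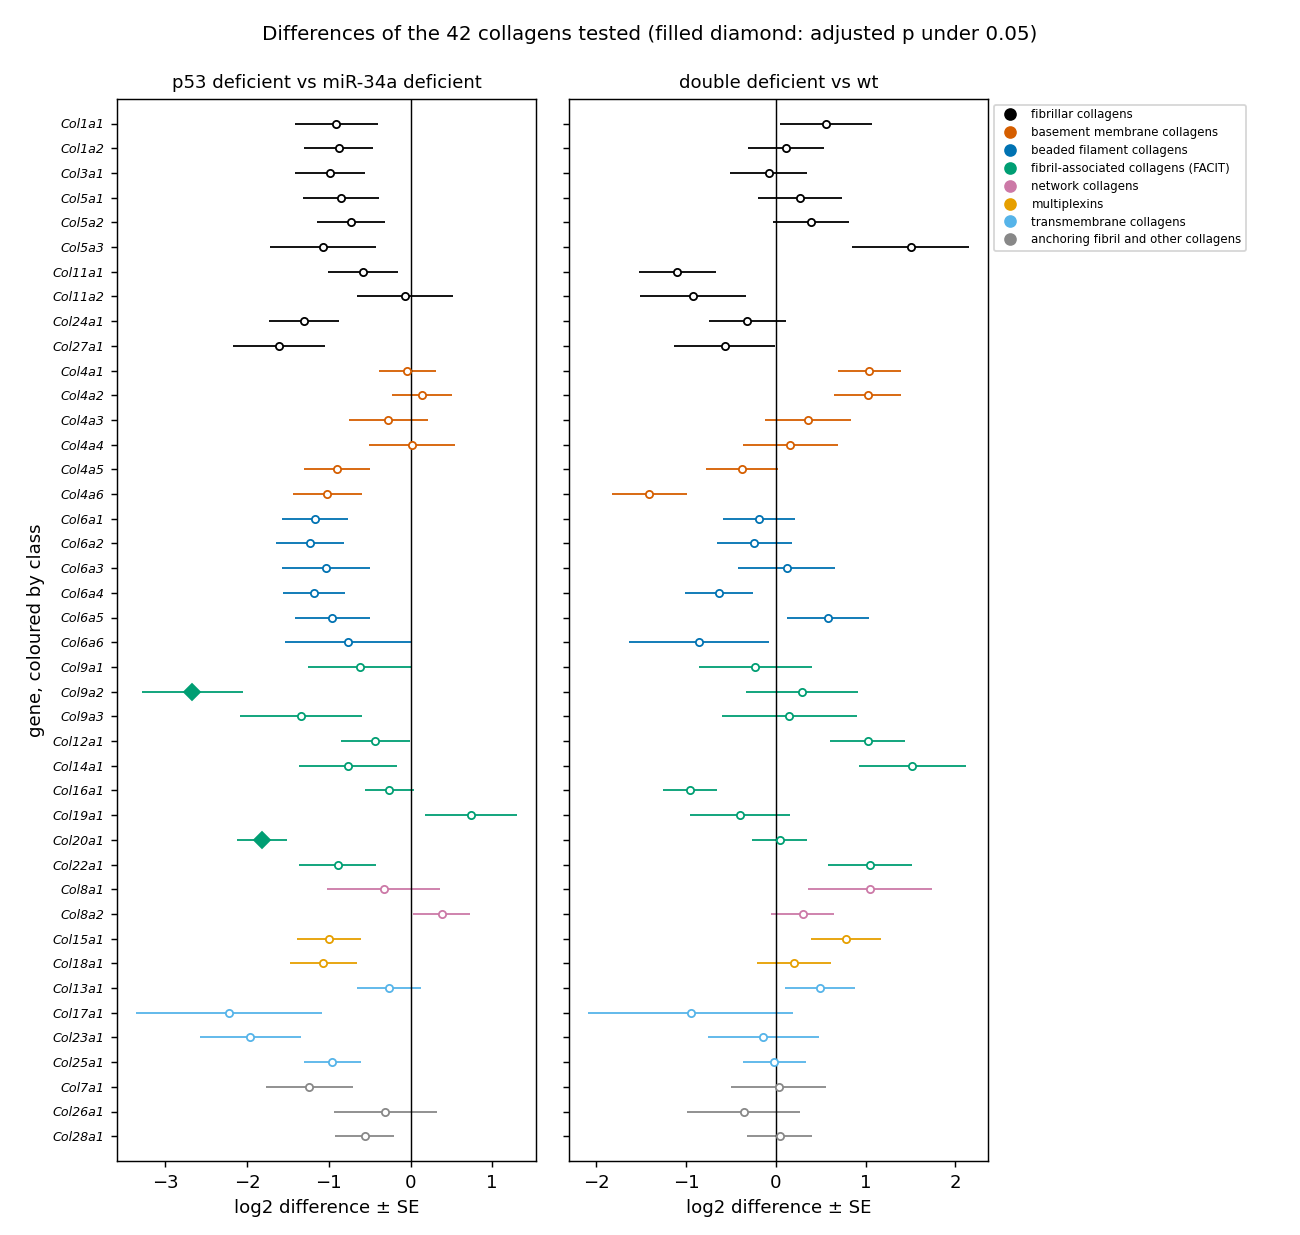
Log2 difference ± SE of the 42 collagens tested (horizontal axes) in p53 deficient against miR-34a deficient and in double deficient against wt tumours, n = 3 per group, with colour for the class and a filled diamond for an adjusted p under 0.05. In the first comparison 38 of 42 lie below 0 and Col20a1 and Col9a2 are called, and in the second 24 lie above 0 and none is called.

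Both calls were lost when single libraries were left out. Without any 1 of the miR-34a deficient libraries, or without p53 deficient 3, Col20a1 had adjusted p of 0.0571 to 0.0685 (limma). Col9a2 lost its call without any 1 of the 6 libraries compared, or without double deficient 2 or 3, with adjusted p from 0.0579 to 0.139. Without the 2 libraries of the run code of their own, 1 in each group, adjusted p was 0.079 and 0.107 and the differences -1.63 and -2.62. With Y-linked expression as covariate the differences were -1.59 and -3.29, at adjusted p of 0.11 and 0.0957. Without p53 deficient 3 the median of the 42 collagens was -0.57.

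Cell type markers moved in the same comparison. The sum of 15 fibroblast markers was 17824 to 27286 in miR-34a deficient and 11556 to 12964 in p53 deficient libraries. Vim alone gave 7757, 6330 and 6409 of it in miR-34a deficient and 2278, 1852 and 2199 in p53 deficient libraries. The mean log2 value of the 10 markers with a mean of at least 100 nearly met, at 9.88 in miR-34a deficient 3 and 9.80 in p53 deficient 1. All 15 genes had differences below 0, against 57.2% of all genes. For only 3 of the 15 the groups did not overlap, all lower, against 16.6% of all genes. Of these markers 1 was called (Vim, -1.69 ± 0.29, limma adjusted p = 0.0196), against 2.25% of all genes called lower. Vim lost its call without miR-34a deficient 1 or 3 or p53 deficient 2 or 3 (adjusted p 0.0534 to 0.073), and in 6 of all 25 alternatives, other processing included. All 12 endothelial markers were also below 0 (4165 to 5096 against 2731 to 3466), while 10 of 11 epithelial markers were above 0 (486202 to 592935 against 643750 to 865330). All 10 smooth muscle and 6 leukocyte markers and 5 of 6 pericyte markers were below 0 as well. In bulk tumours fewer cells of a type and less RNA per cell cannot be told apart. The part of cell composition in the collagen differences was not tested.

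In miR-34a deficient against wt tumours most collagen differences were above 0, but none was called. None of 42 passed the adjusted threshold in limma, against 0.0375% of all genes, and 3 were higher and 0 lower at an unadjusted p under 0.05, against 4.61% and 1.48% of all genes. For 3 the groups did not overlap, all higher, against 6.5% of all genes higher and 3.57% lower. The difference was above 0 in 34 of 42 and in 54.2% of all genes, with medians of 0.45 and 0.03. Col20a1 (1.14 ± 0.31), Col15a1 (1.06 ± 0.39) and Col12a1 (1.08 ± 0.42) had the lowest p, with limma adjusted p of 0.564, 0.757 and 0.766. Col1a1 differed by 0.75 ± 0.51 and Col4a1 by 0.59 ± 0.35, and their groups overlapped. With a library left out Col1a1 ran from 0.45 to 1.23, and without wt 2 the collagen median was 0.72. All 12 endothelial, 10 smooth muscle, 6 pericyte and 6 leukocyte markers and 14 of 15 fibroblast markers were above 0 here, and all 11 epithelial markers below 0. None of them was called, and their part was not tested.

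In p53 deficient against wt tumours most collagen differences were below 0. Of the 9 above 0 the highest were Col19a1 (0.76, with 179 in p53 deficient 2), Col12a1 (0.64), Col4a2 and Col4a1. None of the 42 was called in limma, against 0.0234% of all genes. At an unadjusted p under 0.05, 4 were lower and 0 higher, against 8.62% and 6.69% of all genes. For 2 the groups did not overlap, both lower, against 9.27% of all genes lower and 6.91% higher. The difference was below 0 in 33 of 42 and in 53.6% of all genes, with medians of -0.39 and -0.04. Col4a6 (-1.23 ± 0.42), Col9a2 (-1.60 ± 0.62) and Col27a1 (-1.42 ± 0.56) had the lowest p, with limma adjusted p of 0.202, 0.259 and 0.263. Col4a1 and Col4a2 differed by 0.54 ± 0.35 and 0.62 ± 0.37, and Col1a1 by -0.16 ± 0.51, none of them called (limma adjusted p = 0.484, 0.445 and 0.911). Without p53 deficient 3 the difference of Col1a1 was 0.40 and that of Col27a1 -0.75. Without wt 2 that of Col9a2 was -0.82 and the collagen median -0.24. Of the fibroblast markers 11 of 15 were below 0 (median -0.34), and 5 of 6 pericyte and 7 of 12 endothelial markers were above 0 (medians 0.55 and 0.24), none of them called, and their part was not tested.

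In double deficient against wt tumours the differences of collagens lay on both sides of 0. None of 42 collagens was called in limma, against 0.802% of all genes, and 6 were higher and 3 lower at an unadjusted p under 0.05, against 7.19% and 8.08% of all genes. The median was 0.08 for collagens and 0.02 for all genes, and 24 of 42 were above 0, against 51.6% of all genes. For 2 collagens the groups did not overlap and were higher, and for 3 lower, against 9.76% and 10.1% of all genes. Col4a6 (-1.41 ± 0.42) and Col16a1 (-0.96 ± 0.30) had the lowest p, with limma adjusted p of 0.147 and 0.167 and no overlap of the groups. Col11a1, at values of only 1 to 6 in these groups, was at -1.10 ± 0.43.

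Differences above 0 with an unadjusted p under 0.05 were those of both main type IV chains, 3 fibril-associated collagens and Col5a3. Col4a1 was at 1.04 ± 0.35 and Col4a2 at 1.02 ± 0.37 (limma adjusted p = 0.189 and 0.219). Without wt 2, the high wt library, Col4a2 was called (1.51, limma adjusted p = 0.0446). Col14a1 was at 1.52 ± 0.60, and at 0.73 without double deficient 1. Col5a3 (1.50 ± 0.65), Col12a1 (1.02 ± 0.42) and Col22a1 (1.05 ± 0.47) had limma adjusted p of 0.302, 0.278 and 0.315. Of the type I and III chains, not called either, Col1a1 was at 0.56 ± 0.51, Col1a2 at 0.11 ± 0.42 and Col3a1 at -0.08 ± 0.43. The sign of the last 2 changed when single libraries were left out.

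Against miR-34a deficient tumours, double deficient ones had 0 collagens called in limma, where 0.905% of all genes were, and 7 lower and 2 higher at an unadjusted p under 0.05, against 10.6% and 7.47% of all genes. The median was -0.38, and -0.06 for all genes, with 32 of 42 below 0, against 54.7% of all genes. For 6 the groups did not overlap and were lower, and for 1 higher, against 14.3% and 13% of all genes. Col11a1 (-1.52 ± 0.43), Col20a1 (-1.10 ± 0.31) and Col16a1 (-0.92 ± 0.30) had the lowest p, with limma adjusted p of 0.108, 0.109 and 0.151. For Col11a1 the values were 4, 1 and 2 in double deficient and 8, 12 and 5 in miR-34a deficient libraries, close to the floor of the table. Col8a2, a chain of the network collagen of vessels, was higher by 1.02 ± 0.35, also at values of only 3 to 9. All 15 fibroblast markers were below 0, and their part was not tested. Without double deficient 3 the collagen median was -0.19.

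Against p53 deficient tumours, double deficient ones had 0 collagens called in limma, against 0.605% of all genes, and 4 higher and 0 lower at an unadjusted p under 0.05, against 8.05% and 7.08% of all genes. The median was 0.51, and 0.05 for all genes, with 34 of 42 above 0, against 55% of all genes. For 6 the groups did not overlap and were higher, and for 1 lower, against 10.7% and 8.89% of all genes. The 4 higher ones were fibril-associated: Col14a1 (2.27 ± 0.60), Col9a2 (1.89 ± 0.62), Col22a1 (1.28 ± 0.47) and Col20a1, of which the first 3 had limma adjusted p of 0.118, 0.193 and 0.231. Without double deficient 1 the difference of Col14a1 was 1.48. Without p53 deficient 3 the collagen median was 0.22. All 12 endothelial markers were above 0 (5800 to 7291 against 2731 to 3466), none of them called, and their part was not tested. Y-linked expression (log2) was at most 0.79 in double deficient and 3.73 to 6.98 in p53 deficient libraries. Its part cannot be told apart from that of genotype here.

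The interaction asks whether the loss of both genes differs from the sum of the single losses. No collagen was called in limma (0.0234% of all genes), and 3 lay above and 1 below 0 at an unadjusted p under 0.05, against 3.26% and 4.63% of all genes. Col8a2 (1.37 ± 0.49), Col14a1 (2.25 ± 0.86) and Col9a1 (2.04 ± 0.89) had the lowest p, with limma adjusted p of 0.54, 0.567 and 0.611. Without double deficient 1 the value of Col14a1 was 1.47, and without wt 2 that of Col9a1 was 1.36. The collagen median was 0.04, with 23 of 42 above 0, against 50.5% of all genes, and ran from -0.29 to 0.25 with a library left out. In the test for any difference among the 4 genotypes 1 collagen, Col20a1, was called (limma adjusted p = 0.0494), against 1.91% of all genes. Col9a2 had 0.111 and Col4a6 0.126. The Col20a1 call was lost without any 1 library other than p53 deficient 2, with adjusted p from 0.0536 to 0.131. Without wt 2, Col9a2 was called in its place (adjusted p = 0.0481).

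The ratio of type IV to type I and III values was higher in libraries deficient in p53. The summed value of Col4a1 and Col4a2 over that of Col1a1, Col1a2 and Col3a1, a ratio chosen after its values were seen and so given with no test, was 0.616, 0.784 and 0.75 in wt and 0.723, 0.707 and 0.731 in miR-34a deficient libraries. It was 1.27, 0.803 and 2.67 in p53 deficient and 1.2, 1.13 and 1.54 in double deficient libraries. Every library deficient in p53 was above every library with intact p53, by little in p53 deficient 2. Exon lengths and capture differ between genes, so the ratio has meaning only across libraries. p53 deficient 3 had the lowest type I and III sum (7180), and double deficient 1 the highest type IV sum (37440).

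**Figure D4:**
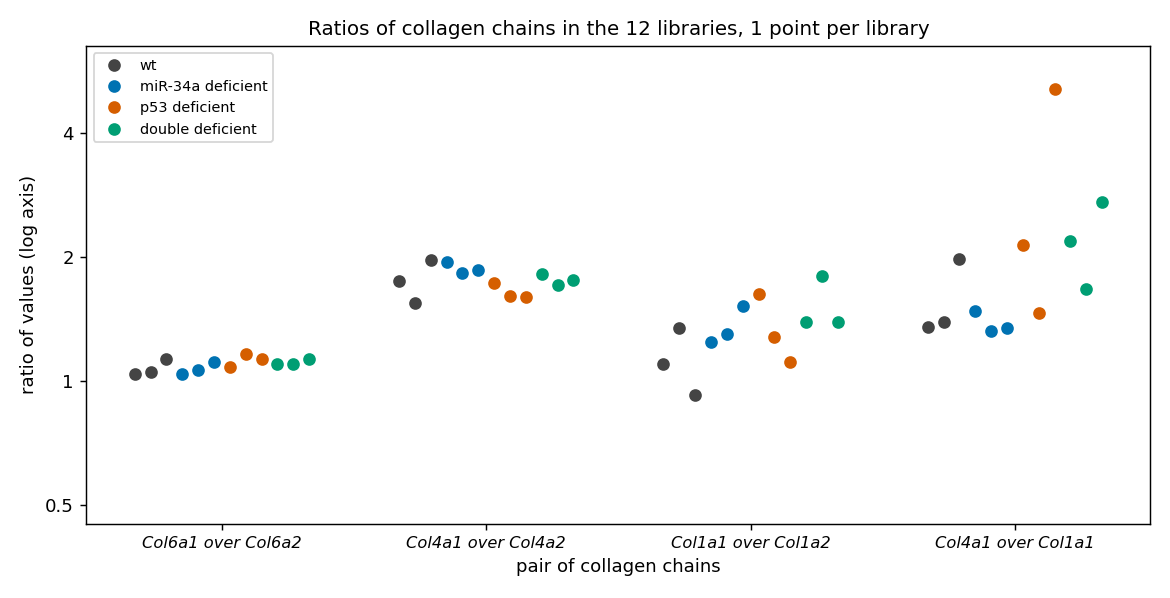
Ratio of 2 collagen genes (vertical axis, log axis) in each of the 12 libraries, for 4 pairs (horizontal axis), coloured by genotype. Col6a1 over Col6a2 stays between 1.04 and 1.16 and Col4a1 over Col4a2 between 1.54 and 1.96, while Col4a1 over Col1a1 spreads from 1.32 to 5.12.

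Cell type markers varied with both profiles. Over the 12 libraries the mean of 10 fibroblast markers with a mean value of at least 100 correlated with type I and III chains at r = 0.89 and with Col4a1 and Col4a2 at 0.40, with Spearman's rho of 0.87 and 0.23. For 11 endothelial markers r was 0.70 and 0.82, and for 4 pericyte markers 0.69 and 0.88. By rank the order turned, with rho of 0.73 and 0.68 for endothelial and 0.80 and 0.65 for pericyte markers. For 11 epithelial markers r was -0.70 and -0.64, and rho -0.57 and -0.40. The libraries of a genotype share it, and marker and collagen share a library's composition. Endothelial sums were 1846 to 4136 in wt and 5800 to 7291 in double deficient libraries. All 12 markers were above 0, against 51.6% of all genes, and 2 were called, against 0.802% of all genes. These were Cdh5 (2.01 ± 0.38) and Flt1 (1.89 ± 0.33), which mark the vessel lining (limma adjusted p = 0.0371 and 0.0323). Both calls were lost without wt 1, wt 3, or double deficient 1 or 3, with adjusted p of 0.0932 to 0.133. Cdh5 also lost it without miR-34a deficient 1 or 2, p53 deficient 3 or double deficient 2 (0.0543 to 0.067), and Flt1 without miR-34a deficient 1 (0.0609). Over all 25 alternatives, other processing included, the call was lost in 16 for Cdh5 and in 9 for Flt1. Other markers moved between double deficient and wt tumours too. All 6 pericyte markers were above 0 (median 1.19, and 0.99 for endothelial markers), as were 7 of 10 smooth muscle and 4 of 6 leukocyte markers. Below 0 were 10 of 15 fibroblast markers (median -0.28) and 9 of 11 epithelial markers (median -0.20). None of these other markers was called. Col4a1 over Cdh5 was 79, 85 and 120 in wt and 38.4 to 66 in the 9 deficient libraries. Over Pecam1, another endothelial gene, it was 23.1, 42 and 35.9 in wt and 22.6 to 41.6 in the deficient libraries, with no separation. The part of vessel content in the type IV values was not tested.

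**Figure D5:**
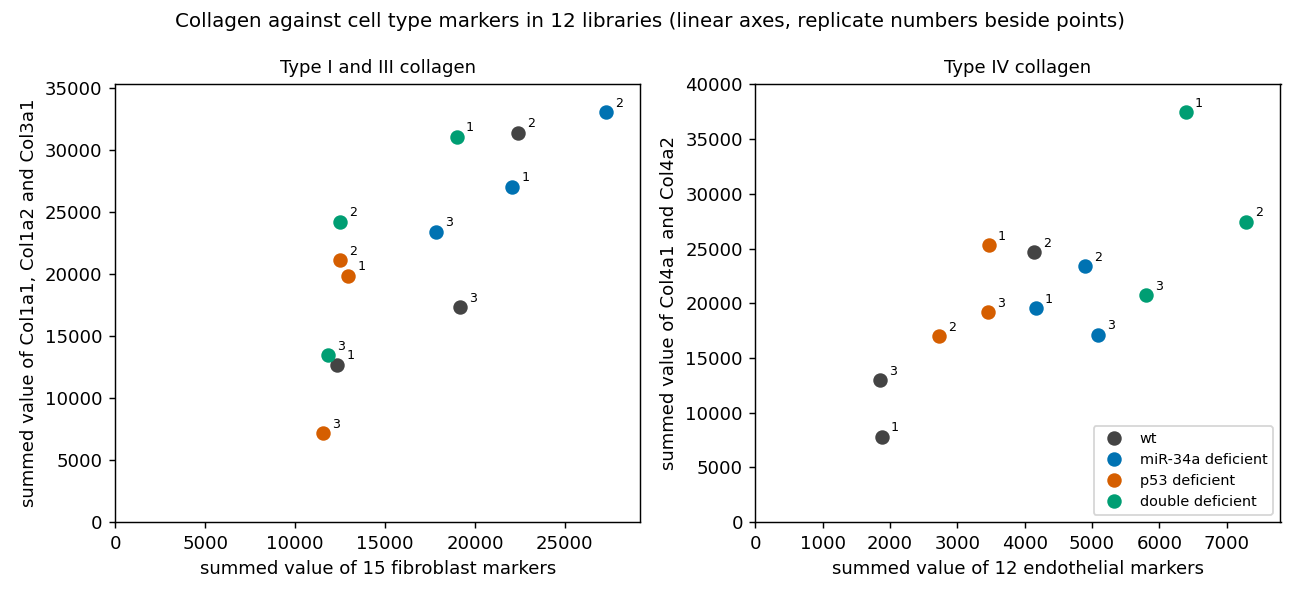
Summed value of type I and III chains against 15 fibroblast markers (left) and of type IV chains against 12 endothelial markers (right) in the 12 libraries, on linear axes with replicate numbers. The p53 deficient libraries sit at fibroblast sums of 11556 to 12964, and the double deficient ones at endothelial sums of 5800 to 7291.

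The genes outside the family with profiles most like type I and III collagen, among 11691 candidates with a mean of at least 100, were Srpx2 (r = 0.96), Bicc1 (0.95), Leprel2 (0.94), Axl (0.94), Nid1 (0.93), Sparc (0.93), Gnb4 (0.92), Daam2 (0.92), Lamb1 (0.92) and Lsp1 (0.91). Sparc encodes a secreted collagen-binding protein, Leprel2 a collagen prolyl 3-hydroxylase, and Nid1 and Lamb1 basement membrane proteins. Most like Col4a1 and Col4a2 were Tbc1d19 (0.94), Gpr116 (0.93), Tbce (0.91), Itsn2 (0.91), Ppm1f (0.90), Ptprb (0.90), Tdrd9 (0.89), Inhba (0.89), Ppic (0.89) and Abcc9 (0.88). Ptprb encodes an endothelial phosphatase and Abcc9 is on the pericyte marker list. These are descriptions of 12 libraries.

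Of the machinery that folds and modifies collagen, 2 of 20 genes were called, both lower in p53 deficient than in miR-34a deficient tumours, where 2.25% of all genes were called lower. Plod1, a lysyl hydroxylase of collagen chains, had values of 943, 870 and 602 in wt, 807, 1128 and 974 in miR-34a deficient, 389, 486 and 251 in p53 deficient, and 842, 528 and 503 in double deficient libraries. Every p53 deficient library was below every other one. Its difference was -1.41 ± 0.29, 2.65-fold lower (limma adjusted p = 0.0322), and against wt -1.12 ± 0.29, which was not called (limma adjusted p = 0.131).

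Serpinh1, the collagen chaperone HSP47, had 1228, 2433 and 1296 in wt, 1743, 4200 and 3486 in miR-34a deficient, 783, 1265 and 416 in p53 deficient, and 2558, 1246 and 1026 in double deficient libraries. All p53 deficient values lay below the miR-34a deficient ones and overlapped the wt ones. The difference was -1.98 ± 0.48, 3.95-fold lower (limma adjusted p = 0.0484). Plod1 lost its call without any 1 miR-34a deficient library, without p53 deficient 3 or without double deficient 3 (adjusted p 0.0532 to 0.101). Serpinh1 lost it without any 1 of the 6 libraries compared, wt 1, wt 3, or double deficient 2 or 3 (0.0553 to 0.144). Over all 25 alternatives, other processing included, the call was lost in 10 for Plod1 and in 18 for Serpinh1. In 16 of the 20 genes the difference was below 0, against 57.2% of all genes, with a median of -0.30, against -0.10.

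The other lists, which were chosen with earlier results of these data known, had 0 genes called in every pairwise comparison in limma. All 15 genes of procollagen trimming and crosslinking were below 0 in p53 deficient against miR-34a deficient tumours, against 57.2% of all genes, and 3 of them had an unadjusted p under 0.05, against 14.3% of all genes. Bmp1, the procollagen C-proteinase, was at -1.43 ± 0.44 (limma adjusted p = 0.0929). All 15 were above 0 in miR-34a deficient against wt, against 54.2% of all genes, and Loxl4 had the lowest p (0.86 ± 0.36, limma adjusted p = 0.778). Of 10 collagen receptors, the integrin gene Itga10 had the lowest p in double deficient against miR-34a deficient tumours (-1.38 ± 0.34, limma adjusted p = 0.0786).

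Among 15 other basement membrane components, 11 were above 0 in double deficient against wt tumours, against 51.6% of all genes, with 2 higher and 1 lower at an unadjusted p under 0.05, against 7.19% and 8.08% of all genes. Lamb2, a laminin chain of vessel basement membranes, had 1092, 1447 and 375 in wt and 2298, 2543 and 2228 in double deficient libraries, without overlap. Its difference was 1.48 ± 0.37 (limma adjusted p = 0.0992), and it was called without wt 2 (1.88, limma adjusted p = 0.0458). Of 12 TGF-beta genes, the matricellular gene Ctgf had 508, 682 and 762 in wt, 799, 867 and 918 in miR-34a deficient, 1485, 2688 and 1983 in p53 deficient, and 2964, 890 and 1595 in double deficient libraries. It differed from wt by 1.63 ± 0.37 in p53 deficient and by 1.33 ± 0.37 in double deficient tumours, neither called (limma adjusted p = 0.108 and 0.126). Without double deficient 2 the latter was called (1.76, limma adjusted p = 0.0358).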

How the data were processed

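Total RNA of 12 colon tumour libraries was isolated with a QIAGEN kit and sequenced after standard Illumina preparation, per the labels. The authors deposited score values, a normalized whole number for each gene symbol. The submitters' processing notes name mm10 as build. How reads were aligned, counted, annotated and normalized is not given in the sources used here, so counts, depth and counting precision are unknown. Deviations from genotype means over 9791 genes of mean 500 or more spanned 7 dimensions of 8 expected (singular values 32.2 and 0.179). The absent direction had 47.2% of its squared weight on double deficient 3 and 16.5% on double deficient 2.

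Values were taken as log2(value + 1). The 21322 genes with a mean of at least 1 were fitted with limma 3.58.1 in R 4.3.3 (trend in the prior variance, 8 residual degrees of freedom), 1 mean per genotype, with Benjamini-Hochberg adjustment over all genes and a threshold of 0.05. The test was checked on simulated data.

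The members, classes, pathway lists, markers and tests were chosen with earlier results of these data known. Named are 16 collagens fixed by their role, every called collagen, the 3 of lowest p in each comparison, called genes of other lists or else the one of lowest p (not all printed), and the 10 genes with the most similar profiles. Others are named as examples of their class. Positions are from GENCODE M21 (GRCm38), start regions from RefSeq (GRCm38.p6). Alternatives covered the pseudocount, filters, rescaling, variance prior, groups fitted, replicate numbers, run code, Y-linked level, the absent direction and each library left out.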

Additional observations from a re-analysis of the deposited data

How the results depend on the processing

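Over 25 alternatives (24 for the interaction) 0 collagens were called in miR-34a deficient against wt, p53 deficient against wt, double deficient against either single deficiency and the interaction. For double deficient against wt the number was 0 to 1 with a library left out (Col4a2 without wt 2). The 2 calls in p53 deficient against miR-34a deficient tumours became 1 with no filter, a mean of at least 100 (Col20a1 then untested), quantile normalization, no trend in the prior variance, or the absent direction as a covariate. They became 0 with only the groups compared, without the 2 libraries whose run code differs, or with Y-linked expression as covariate, and 0 to 2 with a library left out. With replicate numbers as a replicate block there were 5 (Col20a1, Col9a2, Col6a1, Col6a2 and Col6a4, the last 3 with adjusted p of 0.0317, 0.0272 and 0.0436 in limma). The numbers are not stated to pair libraries, only 4 of the 18 pairs that share a number had r over 0.1, and for 5 of 12 libraries the nearest library had its number. The 1 call in the test over 4 genotypes became 0 with a pseudocount of 10, no filter, a mean of at least 100, median-of-ratios, upper-quartile or quantile rescaling, the replicate block, the absent direction, the run code or Y-linked expression as covariate, or without the 2 libraries whose run code differs, and 0 to 1 with a library left out. It stayed with no trend. The cause was not tested.

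Every median over the collagens stayed within 0.37, the SD between replicates, of its value. The median of double deficient against wt ran from -0.15 to 0.28 and that of the interaction from -0.29 to 0.25, so both changed sign. The differences of opposite sign were Col1a1, p53 deficient against wt (0.06 with Y-linked expression as covariate, 0.32 without wt 2, 0.40 without p53 deficient 3, range with a library left out -0.46 to 0.40), Col1a2 in that comparison (0.02 without p53 deficient 3, range -0.70 to 0.02), Col1a2, double deficient against wt (-0.18 without wt 1, -0.16 without double deficient 1, range -0.18 to 0.45), and Col3a1 there (0.22 without wt 2, 0.24 without double deficient 3, range -0.38 to 0.24). Quantile normalization moved the median of all genes by up to 0.13. With the groups compared alone no interaction or test over 4 genotypes could be fitted. With 3 libraries per genotype and an absent direction mainly in the double deficient group, small differences may not be detectable, and the spread of that group is understated in that direction.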
